A study of Homo sapiens with 6 samples.

Results

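The gene-dense part of human chromosome 19 lying mostly outside zinc-finger gene clusters was described here as 40 kb bins of hg19 from 0 to 19.9 Mb on the short arm and from 30 to 51.3 Mb on the long arm, with the topologically associating domains (TADs) called there. The bins were chosen by position and not by any contact value, though with earlier results of these data known. The windows held 1029 bins, and 673 of them had contacts in both maps, out of 64796 such bins on all chromosomes. LNCaP, an established human prostate cancer cell line, had received siRNA at 20 nM, either a pool without a target in the cells (control siRNA) or a pool directed at CTCF (CTCF siRNA), and was collected at 144 h, with a repeat transfection midway. Hi-C joins pieces of DNA that lay close together in the nucleus and counts each junction as a read pair. It had been run on 2 control siRNA and 4 CTCF siRNA libraries. The authors pooled the libraries of a condition into 1 contact map and 1 TAD list, so no replicate was left and no difference below could be compared with replicate error. By their labels the 4 CTCF siRNA libraries are 2 replicates and a further version of each, and whether these were separate cultures is not given. The level of CTCF itself is not measured by Hi-C. All intervals describe counting error or variation among positions.

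CTCF is a DNA-binding protein with several zinc fingers that stops the loop-extruding cohesin complex at its sites, and its sites mark many boundaries between TADs. Inside a TAD the DNA contacts itself more than its surroundings, and a boundary is a place that few contacts cross. Chromosome 19 has the highest gene density of the human chromosomes and lies near the centre of the nucleus in many cell types. Much of it is taken up by tandem gene families and by housekeeping genes, which are active in nearly every cell.

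The windows held 1160 protein-coding genes, or 28.3 per Mb, against 6.75 per Mb on the other autosomes, 15.3 on chromosome 17 and 12.9 on chromosome 22. Zinc-finger genes made up 119 of the 1160 genes, or 10.3%, against 45.3% in the rest of chromosome 19. They still included whole clusters, such as 19 of the 21 genes that start at chr19:37000001-38000000 and 22 of the 37 at chr19:44000001-45000000. GC content was 49.8% against 40.8% on the other autosomes, and a bin held 7.98 sites of BglII, the enzyme that cut the DNA, against 10.8.

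The contacts of the short arm were known only in part. No contact of any chromosome was listed before position 9400001, which took 235 bins from the short arm, and at 121 later bins of the windows no chromosome had a contact at that position either. The longest of these runs was chr19:11200001-14320000. In total 441 of the 1160 genes started in bins without contacts. The TAD lists covered these stretches all the same, so TAD numbers describe the whole windows, whereas insulation, decay and contacts between the arms rest on 142 usable bins of the short arm and 520 of the long arm. Most bins with contacts, 588 of them, carried a correction factor shared by all chromosomes at that position, which was divided out.

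Over all chromosomes there were 26174660 read pairs in control and 87657698 in CTCF siRNA. The gap in depth was wider in the gene-dense bins than on the other autosomes as a whole, and chromosome 22 had one as wide. Their median count of contacts within the chromosome was 329.5 in control and 2049 in CTCF siRNA, a ratio of 6.22, against 6.47 on chromosome 22, 5.15 on chromosome 17 and 3.43 on the other autosomes. Of all contacts of these bins 53.3% lay within the chromosome in control and 72.9% in CTCF siRNA, against 53.5% and 72.8% on chromosome 22, 50.1% and 68.6% on chromosome 17 and 49.7% and 61.6% on the other autosomes. How far this difference in composition enters the results below was not tested.

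Matches to the core of the CTCF recognition sequence, read as CCA, any 2 bases, AGG, any base and GGC on either strand, were frequent in this gene-dense DNA. At least 1 match lay in 48.9% of the 1029 bins, against 26.3% of sequenced bins genome-wide. Among the named boundary bins described below, 4 gained boundaries and 1 maintained boundary held matches, while none of the named lost boundaries did. They are shown because they are the letters CTCF could read at these boundaries. Each is given on the strand of the match, 5′ to 3′, with the core in capitals, from the GRCh37 reference. All lay in introns. Whether CTCF was bound there was not measured in these files.
ECH1 intron, gained boundary at LGALS4, chr19:39311509-39311568, plus strand: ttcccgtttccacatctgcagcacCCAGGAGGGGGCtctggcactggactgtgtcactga
DEDD2 intron, gained boundary at GSK3A and ERF, chr19:42722017-42722076, minus strand: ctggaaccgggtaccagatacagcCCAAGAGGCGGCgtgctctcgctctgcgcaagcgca
GSK3A intron, the same boundary, chr19:42733565-42733624, plus strand: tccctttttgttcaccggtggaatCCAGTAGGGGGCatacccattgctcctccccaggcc
NUP62 and IL4I1 intron, gained boundary, chr19:50420213-50420272, minus strand: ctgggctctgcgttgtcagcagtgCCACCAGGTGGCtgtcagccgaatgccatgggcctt
Intron of ENSG00000269035, gained boundary at MVB12A, chr19:17559506-17559565, minus strand: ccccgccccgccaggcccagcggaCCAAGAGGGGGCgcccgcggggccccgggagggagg
ZNF536 intron, maintained boundary, chr19:31148285-31148344, plus strand: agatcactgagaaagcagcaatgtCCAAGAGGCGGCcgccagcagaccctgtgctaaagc

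After CTCF siRNA the list of the gene-dense windows held more and shorter TADs, and the addition lay on the long arm. The control list had 47 TADs with at least 50% of their length in the windows and the CTCF siRNA list 56, while the other autosomes went from 2707 to 2240. Chromosome 22 went from 36 to 39 TADs, with a median length of 760 kb in control and 520 kb in CTCF siRNA, and the rest of chromosome 19 from 9 to 12, so more TADs were not particular to the gene-dense windows. On the long arm the number went from 21 to 30, and on the short arm it was 26 in each list. On the long arm the control TADs had a median length of 760 kb (95% interval 520 to 1240 kb), and those of CTCF siRNA one of 520 kb (440 to 680 kb). On the short arm it was 720 kb (480 to 960 kb) and 660 kb (440 to 840 kb). The intervals overlap on each arm. Over both arms the median was 720 kb and 600 kb, whereas on the other autosomes it rose from 720 to 840 kb. TADs of at most 400 kb numbered 7 of 47 in control and 14 of 56 in CTCF siRNA. Over all chromosomes they were 526 of 2864 and 432 of 2389. On chromosome 22 they were 3 of 36 and 10 of 39, and on chromosome 17 they were 24 of 96 and 28 of 93. More short TADs were thus not particular to the windows. The share of the windows covered by TADs hardly differed, 92.2% and 91.9%. Where at least 50% of a TAD's bins were usable, the lists held 29 and 36 TADs.

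**Figure D1:**
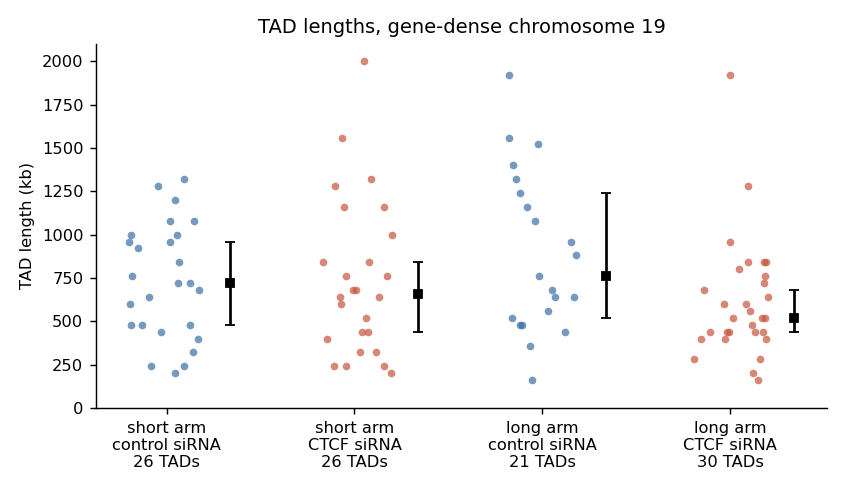
Length of every TAD of the gene-dense windows in kb (points), by arm and condition, with the median (black square) and its 95% order-statistic interval (bar). The long arm has 21 control and 30 CTCF siRNA TADs with medians of 760 and 520 kb, and the short arm has 26 in each with medians of 720 and 660 kb.

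TADs called anew from balanced counts did not show the addition, or the shorter length, seen in the deposited lists. They were called with a directionality index and a hidden Markov model, as the authors had done. From counts balanced to equal coverage, 44 TADs were called in the gene-dense windows in control. The CTCF siRNA map was thinned at random to a share of 0.243, which equalises contacts within chromosomes over the genome but leaves more of them than in control in these bins, where the gap in depth was wider than over the genome. Over 5 draws it gave 31 to 37 TADs, and the full map gave 34. The median length was 500 kb in control, 520 to 600 kb over the draws and 560 kb in the full map. From raw counts there were 27 in control, 27 to 29 in the thinned CTCF siRNA map and 34 at full depth. Their median length was 640 kb in control and 600 kb in CTCF siRNA at either depth. These calls cover only stretches with contacts, where the deposited lists had 29 and 36 TADs. With balanced counts the windows thus had fewer TADs after CTCF siRNA at either depth, and with raw counts as many or more. Over all autosomes, chromosome 19 included, balanced counts gave 3006 TADs in control and 1774 to 1809 in the thinned CTCF siRNA map. Raw counts gave 2401 and 1476 to 1498. At matched depth the autosomes thus had fewer TADs after CTCF siRNA by both calls, and the fall was larger in proportion than any in the windows.

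Boundaries of the gene-dense windows were lost in a smaller share than in the genome and gained in a similar share. Of 59 control boundaries 20 had no CTCF siRNA boundary within 40 kb and were called lost, or 33.9% (Wilson 95% interval 23.1 to 46.6%), where 49.4% of all control boundaries were lost. Of 68 CTCF siRNA boundaries 29 were gained, or 42.6% (31.6 to 54.5%), where 39.3% of all were gained. With no tolerance, so that boundaries had to touch, 52.5% were lost and 58.8% gained. Losses were 10 of 29 on the short arm and 10 of 30 on the long arm. Gains were 9 of 28 on the short arm (17.9 to 50.7%) and 20 of 40 on the long arm (35.2 to 64.8%), and these intervals overlap. On gene-rich chromosome 17 the shares were 38.8% lost and 26.2% gained, and on chromosome 22 they were 45.7% and 43.2%. On the rest of chromosome 19, with few boundaries, 0 of 11 were lost and 3 of 14, or 21.4%, were gained.

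Insulation at maintained boundaries changed less here than on the other autosomes, while lost and gained boundaries changed to a similar extent. The insulation value of a bin compares the contacts that span it, each count set over its expectation by distance, with those inside its flanks of 400 kb on either side, as a log2 ratio, so a low value means that few contacts cross. Since the TAD lists had been called from the same reads, these values describe the boundary classes and are no independent test of them. At lost boundaries the median value went from -0.90 in control to -0.52 in CTCF siRNA, with a median change of 0.44 (95% interval 0.063 to 0.69, 12 of the 20 with a value), and the value was higher after CTCF siRNA at 11 of the 12. The other autosomes changed by 0.58 (0.56 to 0.62). At maintained boundaries the median change was 0.090 (-0.011 to 0.23, n = 25) against 0.35 (0.32 to 0.38), and here the intervals do not overlap. The change was also small at the 56 maintained boundaries of chromosome 17, 0.14 (0.018 to 0.22), and it was 0.21 (-0.031 to 0.64) at the 9 in the rest of chromosome 19. On chromosome 22 it was 0.41 (0.12 to 0.57, n = 21), so gene-rich chromosomes were not alike in this. Gained boundaries changed by -0.12 (-0.25 to 0.043, n = 21), close to the -0.11 of the other autosomes (-0.15 to -0.086), and 6 of the 21 had a higher value after CTCF siRNA. With flanks of 200 kb the medians were 0.50 at lost, 0.13 at maintained and -0.024 at gained boundaries. With flanks of 800 kb the median at maintained boundaries was 0.19 (0.084 to 0.34), and the other autosomes were not recomputed at that width. Bins inside TADs, at least 5 bins from any boundary, changed by -0.034 (-0.065 to 0.022, n = 228).

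**Figure D2:**
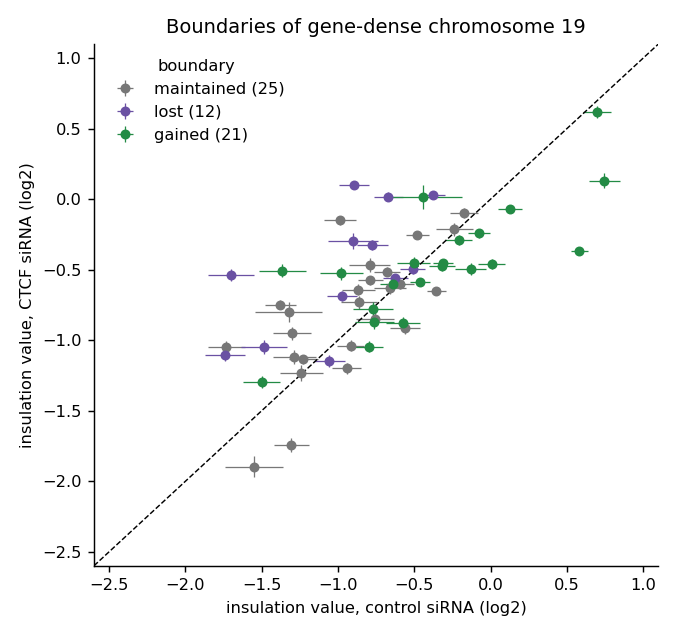
Insulation value (log2) of each boundary bin of the gene-dense windows with a value, in control siRNA (x axis) and CTCF siRNA (y axis), with counting SDs as bars and the line of equal values dashed. Of the 12 lost boundaries 11 lie above the line, 17 of the 25 maintained ones do too, most of them close to it, and 15 of the 21 gained ones lie below it.

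Over all 646 bins with a value the medians were -0.14 in control and -0.096 in CTCF siRNA, and the median change was -0.0031 (-0.042 to 0.032). The value was higher after CTCF siRNA in 322 of these bins, or 49.8%, where 52.4% of all bins genome-wide were higher. A rise of at least 0.5 was seen in 59 of the 646 bins, where the genome had 12.9%, and a fall of at least 0.5 in 22, where it had 3.83%. Thus changes of at least 0.5 were not more common here than in the genome in either direction.

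**Figure D3:**
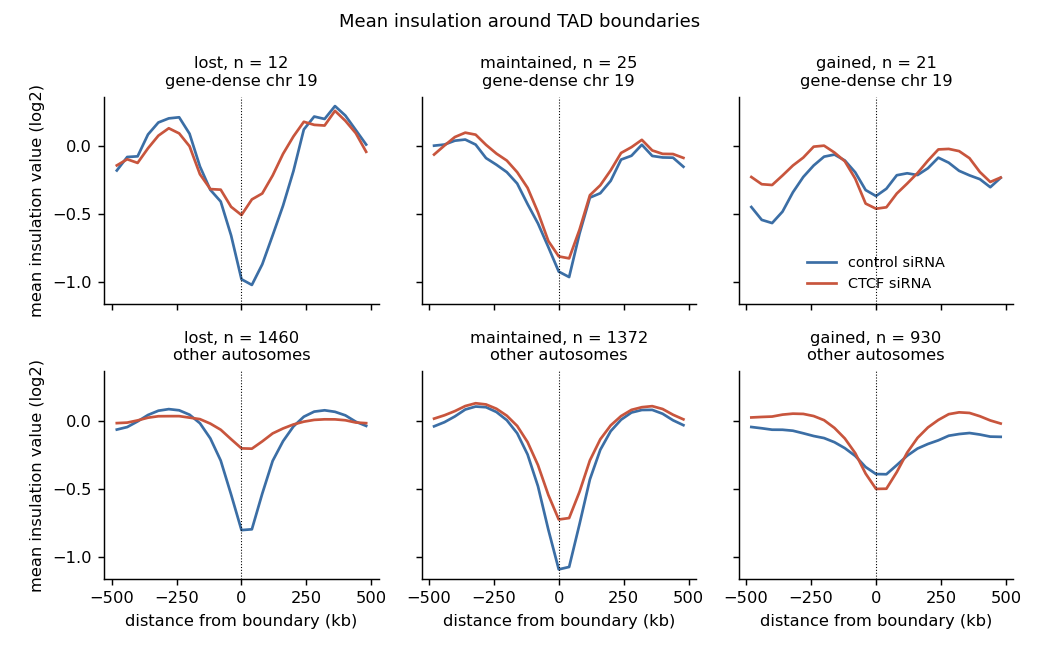
Mean insulation value (log2) by distance from the boundary bin in kb, for lost, maintained and gained boundaries, in control siRNA (blue) and CTCF siRNA (red), with the gene-dense windows above and the other autosomes below. In the gene-dense windows the dip at the 25 maintained boundaries is nearly as deep in both maps, while at the 1372 maintained boundaries of the other autosomes it is shallower in CTCF siRNA.

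Among the gained boundaries, the 8 with the largest falls in insulation value fell by 0.16 to 0.95. The largest fall was at chr19:39280001-39320000, which overlaps LGALS4 and LGALS7B, encoding galectins, sugar-binding proteins of epithelia, and ECH1, an enzyme of fatty acid oxidation. In control 924 contacts crossed it and gave a value of 0.58 ± 0.057 (counting SD), and in CTCF siRNA 3640 contacts gave -0.37 ± 0.027. In control this bin was thus crossed by more contacts than its flanks predict, and in CTCF siRNA by fewer. The bin chr19:44640001-44680000 at ZNF234 and ZNF226, which encode zinc-finger proteins, went from 0.75 ± 0.10 to 0.13 ± 0.051. In CTCF siRNA this value was still above 0, so more contacts crossed than its flanks predict although a boundary was called. By distance alone 2463 were expected, and 1078 crossed. The boundary was the start of a TAD at 44660000, past a gap between TADs that began at 44300000.

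The next in size was chr19:42720001-42760000, with a change of -0.47 ± 0.097 from 0.0083 to -0.46. It overlaps 6 protein-coding genes, among them GSK3A, a kinase of glycogen and Wnt signalling, and ERF, a repressor of the ETS family of transcription factors. It was followed by chr19:41880001-41920000, with BCKDHA, a subunit of the branched-chain keto acid dehydrogenase, and EXOSC5, a subunit of the RNA exosome, which went from -0.13 to -0.50. The remaining 4 had lesser falls. At CALM3, a calmodulin gene, the value went from -0.58 to -0.88. At NUP62, a nuclear pore protein, and ATF5, a transcription factor, it went from -0.80 to -1.05. Both bins were already insulated in control. At URI1, a co-chaperone of the prefoldin family, it went from 0.13 to -0.070, and at MVB12A, a subunit of the ESCRT-I sorting complex, from -0.077 to -0.24. MVB12A was the single gained boundary of the short arm with a value. The other 8 of the short arm had no value, among them the bins at RPS15, a ribosomal protein gene, and TMPRSS9, a serine protease gene. The opposite change was seen at 6 gained boundaries, all on the long arm. The largest was at KCNN4, a calcium-activated potassium channel, and LYPD5, where the value went from -1.36 to -0.51. It was followed by PSG2, a pregnancy-specific glycoprotein, from -0.44 to 0.014, with only 37 contacts across in control, and by DMPK, the kinase gene of myotonic dystrophy, and SIX5, from -0.98 to -0.53.

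The largest rise at a lost boundary exceeded the largest fall at a gained one. At chr19:44960001-45000000 in ZNF180, a zinc-finger gene, 101 contacts crossed in control and 1288 in CTCF siRNA, and the value went from -1.70 ± 0.15 to -0.54 ± 0.045. At chr19:30040001-30080000 in VSTM2B it went from -0.90 to 0.098, and at CYP4F22, a fatty acid hydroxylase of skin, from -0.67 to 0.016. These 2 bins thus reached the level of their flanks. The bin with CAPNS1, the small subunit of the calpain proteases, and COX7A1, a subunit of cytochrome c oxidase, went from -1.74 to -1.11 and so remained insulated. CEACAM8, a surface protein of granulocytes, lay in a bin that went from -0.90 to -0.30.

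The lowest control values among maintained boundaries did not all rise. The bin chr19:38320001-38360000, near ZNF573, went from -1.73 ± 0.12 to -1.05 ± 0.041, and the bin chr19:31120001-31160000 in ZNF536, a neuronal zinc-finger gene, from -1.38 ± 0.10 to -0.75 ± 0.033. In contrast, the bin chr19:48440001-48480000 at BSPH1, a sperm protein gene, went from -1.55 ± 0.19 to -1.90 ± 0.074. Its change of -0.35 ± 0.20 was less than 2 counting SDs, from 63 control contacts.

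Subdivision of TADs was more frequent in the gene-dense windows than in the genome, and merging was less frequent. A control TAD was called subdivided where at least 2 CTCF siRNA TADs lay inside it, give or take 40 kb at each edge. This held for 7 of 47 control TADs, or 14.9% (7.41 to 27.7%), where 5.27% of all control TADs were subdivided, and the 7 held 16 CTCF siRNA TADs. Of the 47, 6 were merged into larger CTCF siRNA TADs, or 12.8% (5.98 to 25.2%), where 31.3% of all were merged. Both intervals leave out the genome's share at this tolerance. With no tolerance 5 of the 47, or 10.6%, were subdivided, and the genome's share was not recomputed. In the rest of chromosome 19, 1 of 9 control TADs was subdivided and none of the 9 was merged. On chromosome 22 subdivision took 19.4% and merging 33.3% of control TADs, and on chromosome 17 they took 6.25% and 21.9%.

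The largest subdivided TAD, chr19:49100000-50620000, was 1520 kb long with 85 protein-coding genes, including BAX, a promoter of apoptosis, and the ferritin light chain gene FTL. It held 4 CTCF siRNA TADs of 440, 440, 440 and 200 kb. Contacts between neighbouring parts were 0.70 times the expected number in control (Poisson 95% interval 0.65 to 0.75) and 0.71 times in CTCF siRNA (0.69 to 0.73). Pooled over the neighbouring parts, contacts were thus not fewer, but the new boundaries differed among themselves. The insulation value changed by 0.20 ± 0.13 (counting SD) at LHB and the CGB genes and by 0.043 ± 0.087 at RPL13A. At NUP62 it changed by -0.25 ± 0.10.

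Of the other 6 subdivided TADs 3 lay where the maps had contacts. The TAD chr19:41180000-42340000, with the CYP2 family of drug-metabolising enzymes, AXL, a receptor tyrosine kinase, and TGFB1, a growth factor, was divided into 600 and 440 kb. Contacts between these parts went from 0.57 (0.51 to 0.64) to 0.48 (0.45 to 0.50), and it was the sole subdivided TAD whose intervals do not overlap. The TAD chr19:38340000-39420000, with RYR1, the calcium release channel of muscle, and ACTN4, an actinin, stood at 1.39 (1.28 to 1.498) and 1.33 (1.29 to 1.37). These values cover only the new edge at 38820000. The gained boundary at LGALS4, whose insulation value went from 0.58 to -0.37, lies inside the same control TAD and does not enter them. The TAD chr19:48460000-49100000, with LIG1, a DNA ligase of replication, stood at 0.48 (0.40 to 0.57) and 0.47 (0.44 to 0.51). The remaining 3 had no contacts in the maps, chr19:5700000-7020000 with LONP1, chr19:7020000-7980000 with INSR, the insulin receptor, and chr19:1220000-1860000 with STK11, a tumour suppressor kinase.

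There were 3 CTCF siRNA TADs that each merged 2 control TADs. The TAD chr19:39900000-41180000, with DLL3, a Notch ligand, and FBL, a nucleolar methyltransferase, joined parts of 520 and 560 kb. Contacts between its parts were 1.01 times the expected number in control (0.93 to 1.103) and 1.43 times in CTCF siRNA (1.39 to 1.47). The TAD chr19:14580000-16580000, with NOTCH3, a Notch receptor, joined parts of 1000 and 920 kb at values of 1.73 (1.62 to 1.83) and 1.84 (1.79 to 1.88), whose intervals overlap. The other merged TAD, on the short arm, had no contacts in the maps.

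The shortest TAD with an edge at a gained boundary was 200 kb on each arm. On the long arm it was chr19:50420000-50620000, with 8 protein-coding genes from IL4I1, an amino acid oxidase, to ZNF473, and contacts inside it were 0.95 times the expected number in control and 1.05 times in CTCF siRNA. On the short arm it was chr19:1220000-1420000, with 11 genes from STK11 to DAZAP1 and no contacts.

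Gained boundaries lay in gene-rich bins. The 29 bins overlapped 87 protein-coding genes, on average 3.0 ± 2.035 per bin (SD), against 1.86 ± 1.34 over all 1029 bins, 2.25 ± 1.21 at the 20 lost and 2.13 ± 1.70 at the 39 maintained boundaries. The SDs overlap widely. All 29 gained and all 20 lost boundary bins overlapped a gene, as did 34 of 39 maintained ones and 89.02% of all bins. The richest gained boundary, with 10 genes, was chr19:49520001-49560000 at LHB and the CGB genes, which encode the beta subunits of luteinising hormone and chorionic gonadotropin. GC content was 51.5% at gained, 49.8% at lost and 51.6% at maintained boundaries. The core motif was present in 18 of 29 gained (62.1%, 44 to 77.3%), 5 of 20 lost (25%, 11.2 to 46.9%) and 20 of 39 maintained boundary bins (51.3%, 36.2 to 66.1%). Over all 1029 bins the share was 48.9%, which lies inside the gained and maintained intervals and just above the lost one. With the neighbouring bins included the shares were 82.8%, 90.0% and 87.2%, beside 84.9% for all bins, so the gap between gained and lost was not seen at that width.

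Most genes of the lists drawn up for this chromosome did not start in a boundary bin that was gained or lost. Over all 1160 protein-coding genes 63 started in a gained boundary bin, or 5.43%, and 26 in a lost one, or 2.24%. Of 13 genes of ribosomal proteins and translation factors 3 started at gained boundaries, among them RPS15 and RPL13A, the latter in a bin that went from -0.64 to -0.60. None started at a lost boundary. The 8 with a value changed by -0.64, at EIF3K, to 0.65, at RPL18. Of 8 respiratory chain genes COX7A1 started at a lost boundary, and 3 had a value. Of 26 genes studied in cancer ERF and PRKD2, a protein kinase D, started at gained boundaries and JUND, a subunit of the AP-1 transcription factor, at a lost one.

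Zinc-finger genes and tandem families differed in the sign of their median change. Of 119 zinc-finger genes 71 had a value, with a median change of -0.092 (-0.17 to -0.035), and 48 of the 71 were lower in CTCF siRNA. ZNF234, ZNF226, ZNF526 and ZNF296 started at gained boundaries, and ZNF780A and ZNF780B at a lost one. Of 63 genes of tissue-restricted tandem families 49 had a value, with a median change of 0.27 (0.15 to 0.41), and 33 of the 49 were higher. LGALS4, PSG2, APOE and APOC1 started at gained boundaries, and OR7G1, OR7G2, OR7G3 and CEACAM8 at lost ones. All protein-coding genes of the windows had a median of -0.015 (-0.057 to 0.027, n = 694), of which 357 were lower and 337 higher. Genes of a family lie side by side and share bins and flanks, so these intervals are narrower than independent positions would give.

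Contacts of the gene-dense windows took a larger share at middle distances after CTCF siRNA, and a slightly larger one within a bin. Within each arm, contacts between 520 kb and 1 Mb were 8.61% of the total in control and 9.65% in CTCF siRNA, and those above 1 and up to 2 Mb 4.26% and 4.65%. The ratio of the shares at 520 kb to 1 Mb was 1.16 on the short and 1.11 on the long arm, against 1.07 on the other autosomes, 1.14 on chromosome 17 and 1.18 on chromosome 22. Contacts within a bin went from 25.9% to 26.6%, and contacts at 40 kb from 17.8% to 17.1%. The largest fall of any distance class was at 80 to 200 kb, from 22.96% to 21.82%. The ratio of the shares within a bin was 1.03, against 1.06 on the other autosomes, 1.02 on chromosome 17 and 0.994 on chromosome 22. Only contacts less than 20 Mb apart were counted, in the shares and in their totals. Counted contacts over 2 Mb went from 5.62% (5.50 to 5.75%) to 4.97% (4.92 to 5.02%), a difference of -0.65 percentage points. The difference was -0.62 on chromosome 22, -0.96 on chromosome 17 and -2.19 on the other autosomes, which had 11.2% and 9.05%. Longer contacts of those chromosomes are left out of these values. On the short arm the share over 2 Mb went from 2.21% to 1.78%, and on the long arm from 6.71% to 5.97%. The windows are short and the short arm has missing stretches, so fewer pairs of bins lie far apart in them than on longer chromosome arms, and these levels and differences cannot be compared directly between arms or chromosomes. From 80 kb to 1 Mb the slope of contacts against distance on log axes was -1.18 in control and -1.09 in CTCF siRNA, and from 1 to 10 Mb it was -1.20 and -1.38. The other autosomes had -0.97 and -0.92 in the first range and -1.43 and -1.61 in the second. Contacts thus fell off faster with distance in the gene-dense windows than on the other autosomes up to 1 Mb and more slowly beyond, in both maps. The same held on chromosome 17, with -1.17 and -1.06 and then -1.35 and -1.52, and on chromosome 22, with -1.13 and -0.997 and then -1.24 and -1.51.

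**Figure D4:**
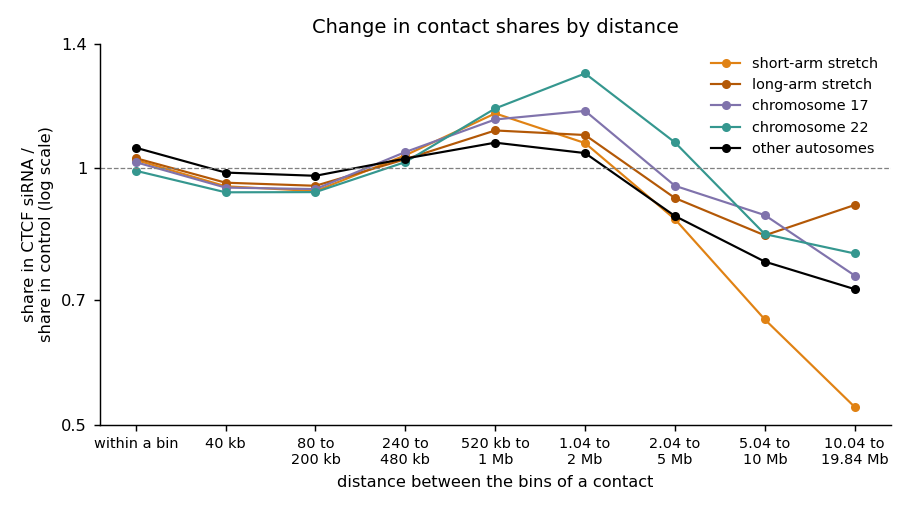
Share of contacts at each distance in CTCF siRNA divided by that in control (log axis), for the short-arm and long-arm stretches of the gene-dense windows, chromosomes 17 and 22 and the other autosomes. Each is on its own total of contacts within arms and less than 20 Mb apart. The long-arm stretch lies above 1 from 240 kb to 2 Mb, with 1.11 at 520 kb to 1 Mb, and below 1 at longer distances.

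The short arm of the gene-dense windows, known here mostly from 15000001 on, and the long arm met often. Contacts between them numbered 2258 in control and 11639 in CTCF siRNA, over 73840 pairs of bins 10 Mb or more apart. These were 6.78 and 11.9 times the number expected from the contacts of the same bins with other chromosomes. The ratio of the 2 was 1.76 (exact conditional 95% interval 1.68 to 1.84). Over the 16 other chromosomes with both arms in the map, the control values ran from 1.94 to 3.42 and the CTCF siRNA values from 1.85 to 5.27, with ratios from 0.952 to 1.57 and a median of 1.21. The ratio on chromosome 17 was 1.57 (1.52 to 1.63). As a share of contacts within the chromosome, contacts between the arms at these distances had a ratio of the maps below 1 on all 16, from 0.607 to 0.849 with a median of 0.73, and the 0.804 of the windows (0.768 to 0.841) lay inside that range. At distances of 10 to 20 Mb alone the gene-dense windows stood at 6.64 and 12.97, and the next highest, chromosome 16, at 5.54 and 8.24. At 20 to 30 Mb the windows, at 6.43 and 10.1, were not the highest. Chromosome 1 stood at 9.87 and 14.1 there, and the ratio on chromosome 17, 1.62 (1.51 to 1.73), was close to the 1.57 (1.46 to 1.68) of the windows. The same short-arm bins met the end of the long arm past 51.3 Mb at 5.63 and 10.1 times the expected number, so high contact with the short arm was also measured in the zinc-finger-rich end.

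The direction of this difference depended on what the contacts were set against. As a share of all contacts within the gene-dense bins they went from 1.71% (1.64 to 1.78%) to 1.37% (1.35 to 1.399%), a ratio of 0.804. As a share of the bins' contacts of every kind they went from 0.635% to 0.782%, a ratio of 1.23. With each contact counted a single time, and not at each of its bins, the share of the bins' contacts that joined other chromosomes went from 59.7% to 38.5%. The rise over expected is therefore a rise relative to contacts with other chromosomes, and relative to contacts within the arms there was a fall.

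**Figure D5:**
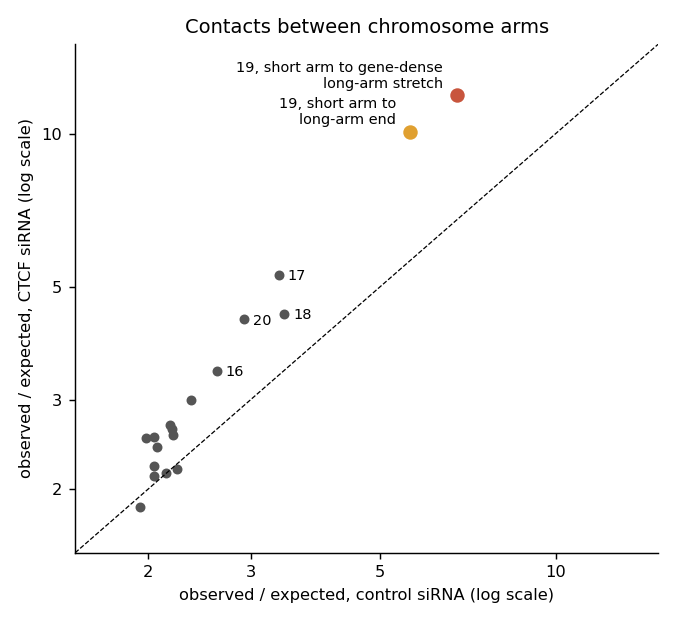
Contacts between the arms of a chromosome, observed over the number expected from contacts with other chromosomes, in control siRNA (x axis) and CTCF siRNA (y axis), both on log axes, with the line of equal values dashed. The gene-dense windows of chromosome 19 (red) stand at 6.78 and 11.9 and the short arm with the end of the long arm (yellow) at 5.63 and 10.1, above the 16 other chromosomes (grey).

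In pairs of 1 Mb stretches the pattern was shared by the maps. Of 105 pairs, made of 5 stretches of the short arm and 21 of the long arm, 102 had a ratio above 1 over this expectation, and the interval lay above 1 in 49 and below 1 in none. As shares of the windows' contacts within the chromosome, 30 of the 105 had a ratio above 1, with the interval above 1 in 1 and below 1 in 9. The direction of the change thus turned with the scale in most pairs. The median over expected was 6.25 in control and 10.4 in CTCF siRNA. Spearman's rho between the maps was 0.828 over the 105 pairs, which share stretches and are not independent. The pair with the highest values was chr19:19000001-19880000 with chr19:36000001-37000000, where 46 protein-coding genes start, at 23.3 from 56 contacts in control and 38.4 from 282 in CTCF siRNA. With each stretch taken into 1 pair only, so that other pairs of the same stretches are passed over, the next were chr19:18000001-19000000 with chr19:49000001-50000000, at 16.4 and 22.1, and chr19:17000001-18000000 with chr19:50000001-51000000, at 13.99 and 26.3. The stretch from 16000001 met that from 35000001 at 7.73 and 11.7, and the stretch from 15000001 met that from 40000001 at 5.16 and 8.26. Over this expectation the interval of the ratio included 1 for the second and the fifth of these pairs. As shares of contacts within the chromosome all 5 had a ratio below 1, from 0.652 to 0.948, and each interval included 1.

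Along the long arm the level tended to be higher where more genes start, with exceptions. The stretches chr19:36000001-37000000 and chr19:50000001-51000000, with 46 and 39 genes, stood at 12.4 and 11.5 times the expected number in control and at 20.7 and 20.9 in CTCF siRNA. The lowest control value, 2.73, was at chr19:32000001-33000000, where 2 genes start, with a ratio of the maps of 2.57 (1.97 to 3.41) over this expectation and of 1.16 (0.888 to 1.54) as a share of contacts within the chromosome. The stretch with most genes, 58 at chr19:49000001-50000000, stood at 8.27 and 14.3. The stretch chr19:37000001-38000000, where 19 of 21 genes are of the zinc-finger kind, stood at 3.98 and 6.06. Over the 21 stretches Spearman's rho of the control value was 0.626 with the number of genes and 0.669 with GC content, and in CTCF siRNA it was 0.521 and 0.688. Neighbouring stretches lie in 1 map and share base composition, so these are descriptions.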

How the data were processed

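Hi-C read pairs of LNCaP were, per the submitters' processing notes and the study's methods, checked with FastQC 0.11.2, mapped to hg19 at BglII fragments with Bowtie 1.1.0 within HiCUP and handled with SAMtools 1.2 and Picard 1.121. The authors pooled the libraries of each condition into 1 matrix of 40 kb bins and called TADs from it by a directionality index and a hidden Markov model. The deposited contact values are read-pair counts without scaling for depth, multiplied between positions 9400001 and 48120000 of every chromosome by a factor per position, the factors at a position being shared by all chromosomes. This unit differed from the plain counts assumed at first, so the factors were estimated and divided out. On chromosome 19 this gave whole numbers, within 0.0101 plus 0.05% of the value, for 99.97% of 36906 values checked in control and 99.73% of 103231 in CTCF siRNA. The deposited TAD lists give a start and an end at the midpoints of bins.

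Genes were taken from the GENCODE annotation on GRCh37 and sequences from the GRCh37 reference. Facing TAD edges at most 100 kb apart were 1 boundary, and boundaries at most 40 kb apart in the lists were taken as the same. Bins with at least 10% of their chromosome's median count of contacts within the chromosome were usable, and an insulation value needed at least 50% of its bin pairs. Intervals are 95% intervals, by Wilson's method for shares, by order statistics for medians, Poisson for observed over expected and exact conditional binomial for ratios of the maps. With 1 map per condition no test across samples could be made. Intervals describe counting error or variation among positions, and read pairs, freed of duplicates by position alone, are not counted molecules.

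Named were the 8 gained boundaries with the largest falls, the 5 lost ones with the largest rises and the 3 maintained ones with the lowest control values, each with at least 50 contacts expected, besides every subdivided or merged TAD, the shortest TAD at a gained boundary on each arm, list genes in gained or lost boundary bins, and the 5 pairs of 1 Mb stretches highest over expected, each stretch in 1 pair only, with at least 20 contacts in each map. Other genes were named after their values were seen, and a few that the rule names are not reported here. The windows, lists and rules were chosen with earlier results of these data known. Alternatives varied the TAD membership rule, boundary tolerances, flanks, expected contacts, balancing, depth and bin filter. The scripts were in Python 3.11.15 with numpy 2.4.6, pandas 2.3.3, scipy 1.17.1, hmmlearn 0.3.3 and pysam 0.24.0. Insulation values and TAD calling were run on simulated maps of this chromosome. Division by the factors and contacts between the arms over expected were not tested in this way.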

Additional observations from a re-analysis of the deposited data

How the results depend on the processing

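Of the values recomputed under other settings, 59 kept their direction and stayed inside the interval or spread of the value reported or, for counts, within 1.5 times of it, 7 moved further and 4 changed direction. The 59 include settings that could not change a value. These were a limit of 3 Mb on TAD length, where the longest TAD had 2000 kb, and leaving out the end of the short arm, which held no contacts. Counting only TADs with at least 50% of bins usable, a choice made after seeing the data, gave 29 control and 36 CTCF siRNA TADs. Requiring boundaries to touch gave 52.5% lost (31 of 59) and 58.8% gained (40 of 68), and the genome's shares were not recomputed at that tolerance. The difference in contacts over 2 Mb and below 20 Mb was -0.82 percentage points without contacts inside a bin and -0.42 on the short arm alone. With the expected number taken from all autosomes, the median change inside TADs was 0.0078 in place of -0.034. The ratio of contacts between the arms was 0.767 as a share of balanced contacts in place of 1.76 over expected, and 1.23 as a share of contacts of every kind in place of 0.804. As shares of contacts within the chromosome, a scale added after seeing the data, 30 pairs of 1 Mb stretches had a ratio above 1 in place of 102. TADs called anew were 1 more in CTCF siRNA from raw counts, at the median of the thinnings, and 9 fewer from balanced counts. The cause was not tested for any of these beyond the change of setting itself. Median insulation changes of the boundary classes kept their sign under every setting tried, but with flanks of 200 kb the median at gained boundaries was -0.024, and with flanks of 800 kb that at maintained ones was 0.19.

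No paired analysis was possible because only 1 pooled map and 1 TAD list stood for each condition, and no replicate was left out for the same reason. Leaving out the last 5 Mb at the end of the short arm changed nothing, since the maps had no contacts there. The control map's depth limits single bins, whose counting SD in insulation had a median of 0.096 over the windows.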

Other observations

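Insulation was stronger in bins with more genes, in both maps. Bins of the gene-dense windows without a protein-coding gene had a median insulation value of 0.16 in control (-0.12 to 0.30) and 0.18 in CTCF siRNA (0.083 to 0.25), over 89 bins with a value. In the 160 bins with 3 or more genes the medians were -0.35 (-0.48 to -0.21) and -0.43 (-0.50 to -0.33). The median change was 0.037 (-0.047 to 0.12) without a gene and -0.065 (-0.10 to -0.0083) with 3 or more. Bins with 1 gene changed by 0.027 and bins with 2 by -0.031.

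The gap in depth between the maps in the gene-dense windows showed no steady rise or fall with GC content among their own bins. In the 166 usable bins of lowest GC content, at most 44.9%, the median count within the chromosome was 269 in control and 1496 in CTCF siRNA, a ratio of 5.56. In the 166 of highest GC content, at least 52.4%, it was 386 and 2217, a ratio of 5.74. Both ratios lay below the 6.22 of all usable bins, and bins of middle GC content were not taken separately. Spearman's rho between GC content and the log2 ratio of the maps was 0.0774 over 662 bins, which share both maps.

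The largest rise in insulation value among the listed respiratory chain genes was in no boundary bin. NDUFA13, a subunit of complex I, lay in a bin that went from -0.94 to 0.11, whereas COX6B1, a subunit of cytochrome c oxidase, lay in another that went from -0.27 to -0.65. Only 3 of the 8 genes had a value.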
